A study of Homo sapiens with 36 samples.

Results

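This account follows 7 genes of 45478 in the deposited count table, taken from a named list and matched from symbol to Ensembl identifier: TXNIP, ARRDC4, ARRDC3, ARRDC2, MLXIP, MLXIPL and MLX. TXNIP encodes thioredoxin-interacting protein, an alpha-arrestin that binds thioredoxin and promotes the removal of glucose transporters from the cell surface. ARRDC4, ARRDC3 and ARRDC2 are further alpha-arrestins, adaptors that bring NEDD4-family ubiquitin ligases to membrane proteins. MLXIP encodes MondoA, MLXIPL encodes ChREBP, and MLX is the partner that both need to bind DNA. The genes were chosen with their levels in these libraries known, so their levels and differences are given as a description. No p-value of a member is printed, and the number of members past a threshold is given only beside the share of all genes past it, with nothing read from it.

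MondoA and ChREBP sense phosphorylated sugars, enter the nucleus with MLX and bind carbohydrate response elements, which are paired E-box-like sequences. TXNIP and ARRDC4 are the best known targets of MondoA, and their transcripts rise quickly when glucose 6-phosphate accumulates. TXNIP and ARRDC4 in turn restrain glucose uptake, which closes a feedback loop, while ChREBP acts mainly in liver and fat cells on genes of glycolysis and fatty acid synthesis.

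The data are bulk RNA-seq counts from 36 libraries in 12 groups of 3, from the human clear cell renal carcinoma lines 786-O and A498. Each line was sequenced as the parental line and as cells selected in rising sunitinib, a receptor tyrosine kinase inhibitor, over 4 months, with stable growth at 2 µM for A498 and 4 µM for 786-O. Every group received 1 of 3 antibodies to PD-L1, atezolizumab, avelumab or durvalumab, at a concentration the labels give as 10 mg/mL, a unit that could not be checked here, for 24 h, in medium with 25 mM glucose. No library without an antibody was used, so antibodies are compared with each other only, and no group had low glucose. Each of the 4 combinations of line and selection, called cell states here (9 libraries each), carries its own batch label, so state and batch cannot be told apart. Nothing in the labels says that replicates were separate cultures, and p-values then measure only the spread between these libraries.

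Library totals ran from 19994882 to 58122896 counts. The libraries labelled A498 resistant did not look like A498. HIF1A, the oxygen-regulated factor that 786-O cells have little of, stood at 8.99 ± 0.493 CPM in them (counts scaled to a common library total, SD, n = 9), against 294 ± 7.37 in parental A498, 9.36 ± 0.571 in parental 786-O and 8.71 ± 0.424 in 786-O resistant. Their mean profile correlated at r = 0.990 with 786-O resistant and 0.884 with A498 parental, across 20752 genes that are not independent replicates. They are therefore called the libraries labelled A498 resistant throughout, and no difference that uses them is read as resistance of A498. The renal marker PAX8 averaged between 224 and 291 CPM in the 4 states, whereas the defining leukocyte markers PTPRC and CD3E were each below 0.03 CPM and summed levels of the leukocyte list stayed between 0.513 and 4.41 CPM. CA9, a HIF target common in clear cell tumours, was at 1.27 CPM in parental A498 and below 0.02 in the other 3 states.

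Promoter sequences are shown for the 3 arrestin genes whose values the results below turn on, so that the motifs found in each can be set side by side. They are the 250 bases before the first RefSeq start site of each gene (GRCh38.p14), at chr1:145996580-145996829 on the minus strand for TXNIP, chr15:97960453-97960702 on the plus strand for ARRDC4 and chr5:91383318-91383567 on the minus strand for ARRDC3, each written 5′ to 3′ along the gene. Capitals mark matches to the 4 motifs searched on both strands: CACGTG (the E-box), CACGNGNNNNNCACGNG (a pair of E-box-like elements spaced as in a carbohydrate response element), CCAAT (the CCAAT box) and GTAAACA (a forkhead core), a motif on the other strand appearing as its reverse complement.
TXNIP: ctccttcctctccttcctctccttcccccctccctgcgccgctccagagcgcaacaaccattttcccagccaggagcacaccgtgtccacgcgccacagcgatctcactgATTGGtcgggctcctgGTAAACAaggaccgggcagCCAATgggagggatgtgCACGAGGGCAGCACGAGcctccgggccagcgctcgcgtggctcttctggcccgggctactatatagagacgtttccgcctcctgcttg
ARRDC4: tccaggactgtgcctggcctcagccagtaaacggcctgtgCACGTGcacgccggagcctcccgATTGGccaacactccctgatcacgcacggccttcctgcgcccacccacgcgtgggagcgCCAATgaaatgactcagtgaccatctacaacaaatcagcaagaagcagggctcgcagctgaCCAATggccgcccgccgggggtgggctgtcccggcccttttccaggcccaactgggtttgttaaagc
ARRDC3: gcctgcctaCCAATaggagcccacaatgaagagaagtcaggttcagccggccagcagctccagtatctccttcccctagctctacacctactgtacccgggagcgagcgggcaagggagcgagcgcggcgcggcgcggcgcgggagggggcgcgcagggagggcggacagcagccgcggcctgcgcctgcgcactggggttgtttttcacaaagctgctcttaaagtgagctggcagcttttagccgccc

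In TXNIP the paired element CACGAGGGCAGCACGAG lies at -88 to -72 from the start site, downstream of a CCAAT box at -105 to -101, a forkhead core at -124 to -118 and a second CCAAT box on the other strand at -140 to -136. Of 27305 RefSeq promoter windows of 300 bases (250 before and 50 after the start), 20 hold that paired pattern (0.0732%) and 931 the forkhead core (3.41%). ARRDC4 has the E-box CACGTG at -210 to -205, a motif in 7.43% of the windows, and 3 CCAAT boxes. The windows of MLX and ARRDC4 were the ones with an E-box among the 7 genes, MLX at -50 to -45. The first-start windows of TXNIP, ARRDC4, ARRDC3, MLXIP and MLX hold at least 1 CCAAT box, which 35.7% of all windows do. ARRDC3 has it at -241 to -237, with no paired element, E-box or forkhead core in that window. At another RefSeq start site of ARRDC3 a forkhead core lies at -29 to -23 on the other strand. A different carbohydrate response element consensus, not a narrower form of the paired pattern, was in the window of none of the 7 and in 0.0989% of all windows. A match describes letters in a window and no binding was measured here.

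TXNIP stood at 26.1 to 48.1 CPM in all 36 libraries, with the 12 group means between 27.5 and 44.0. The gene (ENSG00000265972.6, GRCh38 chromosome 1, 145992435 to 145996600, minus strand) shares no exonic base with another annotated gene. In 786-O resistant it read 27.7, 28.3 and 31.4 CPM with atezolizumab, 42.7, 41.2 and 48.1 with avelumab, and 31.8, 33.2 and 33.1 with durvalumab. All 3 avelumab libraries lay above the 6 others of that state, and above the remaining 33 libraries except for an equal 41.2 in 1 library labelled A498 resistant.

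In 786-O parental it read 35.3, 30.7 and 32.2 CPM with atezolizumab, 27.0, 30.0 and 31.1 with avelumab, and 27.1, 27.6 and 27.7 with durvalumab. In A498 parental it read 32.7, 31.0 and 33.2 with atezolizumab, 29.3, 28.8 and 26.1 with avelumab, and 27.1, 29.5 and 29.9 with durvalumab. The libraries labelled A498 resistant read 36, 37.7 and 35.4 with atezolizumab, 36, 35.3 and 36.5 with avelumab, and 39.5, 41.2 and 37.7 with durvalumab. Both parental states thus had their highest group mean with atezolizumab, where 786-O resistant had its lowest. Ordered by group mean, TXNIP ran from 27.5 ± 0.316 CPM (SD, n = 3) in 786-O parental with durvalumab to 44.0 ± 3.67 in 786-O resistant with avelumab, with the libraries of 10 of 11 pairs of neighbouring groups overlapping.

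**Figure D1:**
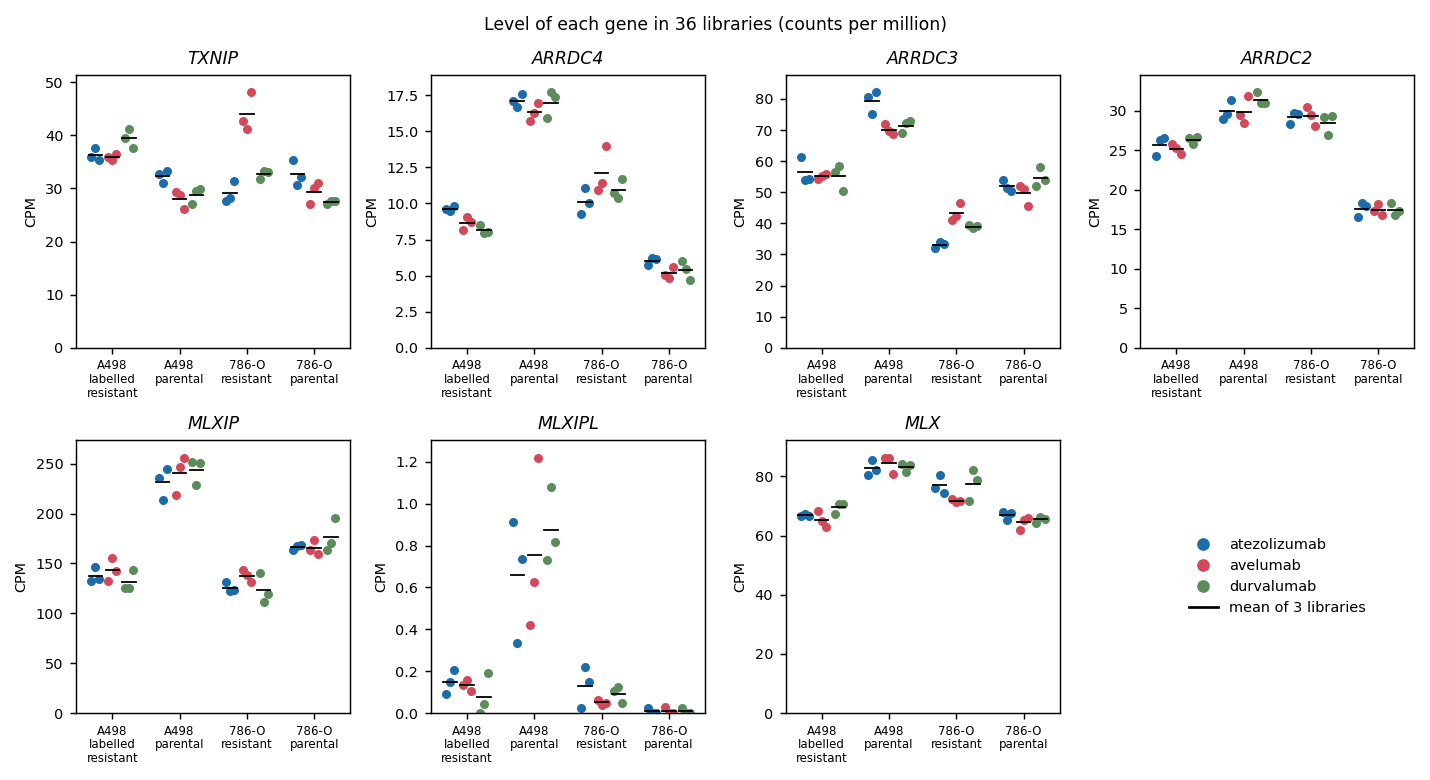
CPM of the 7 genes in each of the 36 libraries (points, coloured by antibody; black lines are means of 3 libraries), grouped by cell state, each panel with its own axis from 0. TXNIP is highest in 786-O resistant with avelumab (41.2 to 48.1 CPM), ARRDC4 is lowest in 786-O parental, and MLXIPL is near 0 outside A498 parental.

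Among the other arrestins, ARRDC3, which directs beta-adrenergic receptors and integrins to degradation and has been described as a metabolic regulator in fat, was the most abundant per exonic length in A498 parental, at 14.9 ± 0.997 RPKM (CPM per kilobase of exon, SD, n = 9) against 8.20 ± 0.645 for TXNIP, 6.56 ± 0.290 for ARRDC2 and 4.13 ± 0.182 for ARRDC4. In 786-O resistant the same scale gave 9.73 ± 1.95 for TXNIP, 7.80 ± 0.952 for ARRDC3, 6.25 ± 0.232 for ARRDC2 and 2.71 ± 0.321 for ARRDC4. ARRDC4 was the lowest of the 4 arrestins in each of the 4 states.

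ARRDC3 (ENSG00000113369.9, chromosome 5, 91368724 to 91383359) read 32.2, 34.1 and 33.2 CPM with atezolizumab in 786-O resistant, 41.1, 42.5 and 46.6 with avelumab, and 39.4, 38.5 and 39.0 with durvalumab. In A498 parental it read 80.6, 75.3 and 82.1 with atezolizumab, 72.0, 69.6 and 68.6 with avelumab, and 68.9, 72.3 and 72.8 with durvalumab. The atezolizumab libraries were thus the lowest of 786-O resistant and the highest of A498 parental, with no overlap in either state, as 3.55% of genes had all 3 atezolizumab libraries highest in A498 parental. The 9 libraries of 786-O parental spanned 45.7 to 58 CPM and those labelled A498 resistant 50.5 to 61.4, with the antibodies overlapping. ARRDC3 shares 2.94% of its exonic bases with ARRDC3-AS1 on the other strand.

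ARRDC4 (ENSG00000140450.9, chromosome 15, 97960698 to 97973838) had the widest range of group means among the 4 arrestins, 3.33-fold. It averaged 16.8 ± 0.741 CPM in A498 parental (15.7 to 17.7), 11.1 ± 1.31 in 786-O resistant (9.29 to 14.0), 5.52 ± 0.571 in 786-O parental (4.69 to 6.20) and 8.81 ± 0.705 in the libraries labelled A498 resistant (7.95 to 9.80). A498 parental lay above and 786-O parental below every library of the other states. ARRDC2, an alpha-arrestin with fewer described functions, averaged 30.4 ± 1.35 CPM in A498 parental, 29 ± 1.07 in 786-O resistant, 17.5 ± 0.708 in 786-O parental and 25.7 ± 0.893 in the libraries labelled A498 resistant. It shares 9.53% of its exonic bases with AC020904.3 on the other strand.

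MLXIP, encoding MondoA, stood at 239 ± 15.3 CPM in A498 parental (214 to 256), 169 ± 10.9 in 786-O parental (159 to 196), 129 ± 10.6 in 786-O resistant (111 to 143) and 137 ± 10.1 in the libraries labelled A498 resistant (125 to 155). Per length of its 13905 exonic bases it stood at 17.2 ± 1.1 RPKM in A498 parental, beside MLX at 19.6 ± 0.543. MLX had the narrowest range of group means among the 7 genes, 1.31-fold, with state means from 65.6 ± 1.83 CPM in 786-O parental to 83.4 ± 2.31 in A498 parental. Its values are uncertain where the counting did not use strand, since 18.1% of its exonic bases lie in PSMC3IP on the other strand.

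MLXIPL, encoding ChREBP, had 226 counts over the 9 libraries of A498 parental (0.334 to 1.22 CPM), 32 over 786-O resistant (0.0250 to 0.218), 26 over the libraries labelled A498 resistant (0 to 0.204) and 3 over 786-O parental (0 to 0.0301). The normalised ratio of A498 parental to 786-O parental was 86.9 (95% counting interval 29.4 to 425), and that of 786-O resistant to 786-O parental was 10.0 (3.13 to 51.1). These intervals cover counting error only and MLXIPL spread widely between libraries of 1 group (median coefficient of variation 50.1%, against 4.86% for TXNIP). Even where highest, ChREBP transcript stood at 0.159 ± 0.0596 RPKM (n = 9) against 17.2 ± 1.1 for MondoA in the same libraries.

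Comparing the selected with the parental state of 786-O, averaged over the 3 antibodies, ARRDC4 was 0.89 ± 0.058 higher on the log2 scale (SE) and ARRDC2 0.62 ± 0.034 higher, with every resistant library above every parental one. ARRDC3 differed by -0.55 ± 0.031 and MLXIP by -0.50 ± 0.039, and MLXIP libraries did not overlap. ARRDC3 libraries overlapped slightly in plain CPM and did not after scaling by TMM (trimmed mean of M-values). TXNIP differed by 0.11 ± 0.036 and MLX by 0.09 ± 0.026. TXNIP libraries overlapped on both scales, and those of MLX after TMM scaling. These differences come from edgeR's fit with TMM scaling, which places the median of all genes 0.11 lower than plain CPM does in this comparison, as much as the whole TXNIP or MLX difference. All 6 members that passed the low-count filter were past an adjusted p of 0.05 in edgeR's quasi-likelihood test, where 83.8% of all genes tested were, 4 as higher (43.6% of genes) and 2 as lower (40.2%). In plain CPM 4 of the 6 did not overlap, as 53.3% of genes did not. MLXIPL did not pass the filter there.

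The small TXNIP difference between the 786-O states held opposite values by antibody. With atezolizumab the resistant mean was 28.5 TMM-scaled CPM and the parental mean 35.1, a log2 ratio of -0.30, and every resistant library was lower. With avelumab the means were 42.7 and 31.1, a log2 ratio of 0.46, and every resistant library was higher. With durvalumab they were 31.6 and 28.9, a log2 ratio of 0.13, again with every resistant library higher. ARRDC4 by contrast was higher in the resistant libraries with each antibody, by 0.62, 1.10 and 0.89 on the log2 scale for atezolizumab, avelumab and durvalumab. For ARRDC3 the log2 ratios were -0.78, -0.32 and -0.61 in the same order.

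Set against A498 parental, the libraries labelled A498 resistant differed by -1.02 ± 0.041 on the log2 scale for ARRDC4, -0.89 ± 0.041 for MLXIP, -0.48 ± 0.029 for ARRDC3, -0.40 ± 0.024 for MLX and -0.33 ± 0.031 for ARRDC2, each without overlap. TXNIP was 0.24 ± 0.031 higher, without overlap in plain CPM and with overlap after TMM scaling. MLXIPL differed by -2.75 ± 0.31, from 226 against 26 counts. All 7 members were past the threshold, where 88.2% of genes tested were, 1 as higher (44.2% of genes) and 6 as lower (44.0%). In plain CPM none of the 7 overlapped, as 66.6% of genes did not. The marker HIF1A separates the same 2 sets of libraries.

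The parental lines, a comparison between lines that does not use the libraries of doubtful line, showed lower values in 786-O than in A498 for 6 of the 7 genes. ARRDC4 differed by -1.58 ± 0.046 on the log2 scale, ARRDC2 by -0.77 ± 0.032, ARRDC3 by -0.47 ± 0.026, MLXIP by -0.47 ± 0.040 and MLX by -0.32 ± 0.022, each without overlap, beside the MLXIPL ratio above. TXNIP was nearly level, at 0.04 ± 0.032. All but TXNIP were past the threshold (6 of 7, all lower, against 87.2% of genes tested in either direction and 44.3% lower), and the same 6 did not overlap, as 64.5% of genes did not. Between the 2 sets labelled resistant, 4 of 6 members were past it against 69.0% of genes tested, with ARRDC3 at -0.51 ± 0.033 and ARRDC4 at 0.35 ± 0.052 in 786-O relative to A498. TXNIP and MLXIP were at -0.07 ± 0.035 and -0.06 ± 0.040, inside the spread of the libraries pooled over antibodies. For TXNIP the log2 ratios of TMM-scaled means were -0.28 with atezolizumab, 0.32 with avelumab and -0.26 with durvalumab. With each antibody the TXNIP libraries of the 2 sets did not overlap. The 4 state comparisons share libraries with each other.

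**Figure D2:**
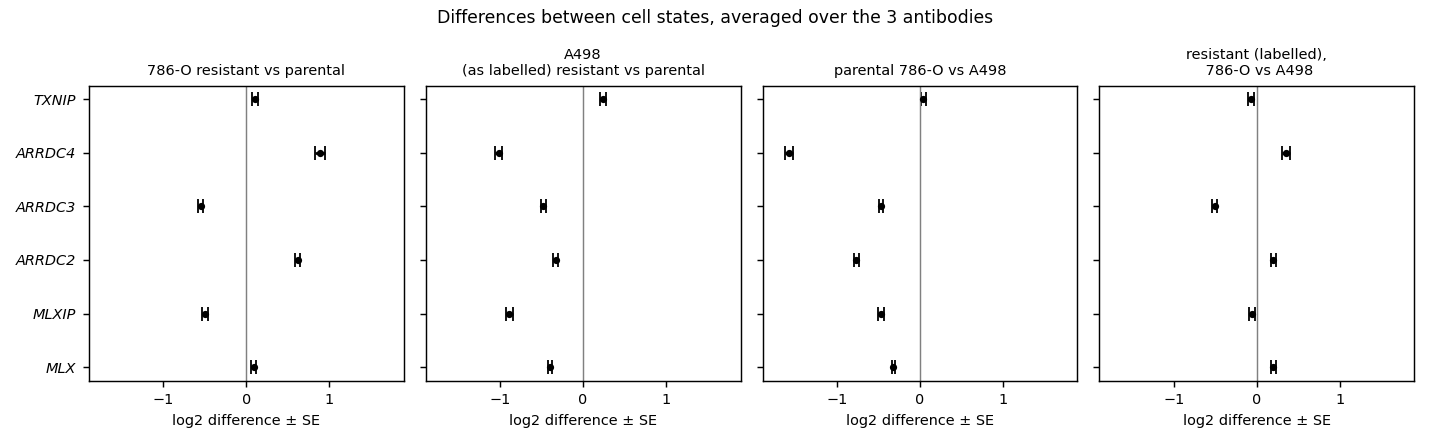
log2 difference (point) with its standard error (bar) from edgeR for 6 of the genes in each of the 4 comparisons of cell states, MLXIPL being left out for its low counts. ARRDC4 runs from -1.58 to 0.89 across the panels, whereas TXNIP stays between -0.07 and 0.24.

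Antibodies were compared inside each state, with a test of any difference among the 3. In 786-O resistant, avelumab libraries exceeded atezolizumab libraries by 0.57 ± 0.065 on the log2 scale for TXNIP (1.48-fold) and by 0.36 ± 0.055 for ARRDC3 (1.29-fold). Durvalumab lay between, at 0.14 ± 0.066 above atezolizumab for TXNIP, where libraries overlapped after TMM scaling, and 0.21 ± 0.056 above it for ARRDC3. ARRDC4 was 0.23 ± 0.093 higher with avelumab, with overlap, and this fell to 0.13 without avelumab replicate 3, the library highest in all 3 arrestins. For TXNIP leaving out any 1 library gave 0.51 to 0.63. ARRDC2 and MLXIP differed by -0.01 ± 0.058 and 0.10 ± 0.064 between avelumab and atezolizumab, and MLX by -0.12 ± 0.053, with avelumab lower in every library.

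TXNIP and ARRDC3 were the members past the threshold in 786-O resistant, 2 of 6, where 140 of 18886 genes tested were (0.741%). That number of genes moved with the setting, from 71 to 1160 when 1 library was left out (1160 without durvalumab replicate 1), 307 with DESeq2 and 626 in a fit on all 36 libraries. Each had all 3 avelumab libraries above the other 6 in CPM, as 3.68% of genes had. They also had all 3 atezolizumab libraries below the other 6, as 4.87% of genes had. The avelumab libraries of this state held 46878312, 51966798 and 40069643 counts, those of atezolizumab 39925264, 32083005 and 40665290, and those of durvalumab 38325859, 40834536 and 43610483. Depth thus ran higher with avelumab in replicates 1 and 2 and not in replicate 3, and its part in the result was not tested.

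In A498 parental the same pair of genes was past the threshold (2 of 7, against 3.83% of genes), in the other direction. TXNIP differed by -0.21 ± 0.054 with avelumab and -0.18 ± 0.053 with durvalumab relative to atezolizumab, and ARRDC3 by -0.19 ± 0.040 and -0.17 ± 0.039. TXNIP lost the call under 7 of 15 other settings, DESeq2 among them and the omission of atezolizumab replicate 1 or 3, avelumab replicate 2 or durvalumab replicate 1, and ARRDC3 without atezolizumab replicate 3. In 786-O parental only TXNIP was past it (1 of 6, against 3.52% of genes), at -0.17 ± 0.054 with avelumab, where libraries overlapped, and -0.27 ± 0.054 with durvalumab, where they did not (19.3% of genes did not). It lost the call without atezolizumab replicate 1 or durvalumab replicate 2. ARRDC3 there differed by -0.08 ± 0.048 and 0.05 ± 0.048.

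In the libraries labelled A498 resistant none of 6 members passed edgeR's test, where 0.0114% of genes did. Of these members 2 had an unadjusted p under 0.05 and DESeq2 called 0. TXNIP was 0.12 ± 0.050 higher with durvalumab than with atezolizumab and ARRDC4 -0.24 ± 0.085, both without overlap, and 13.5% of genes had no overlap in this pair of antibodies. Whether the antibody differences differ between states was not tested.

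**Figure D3:**
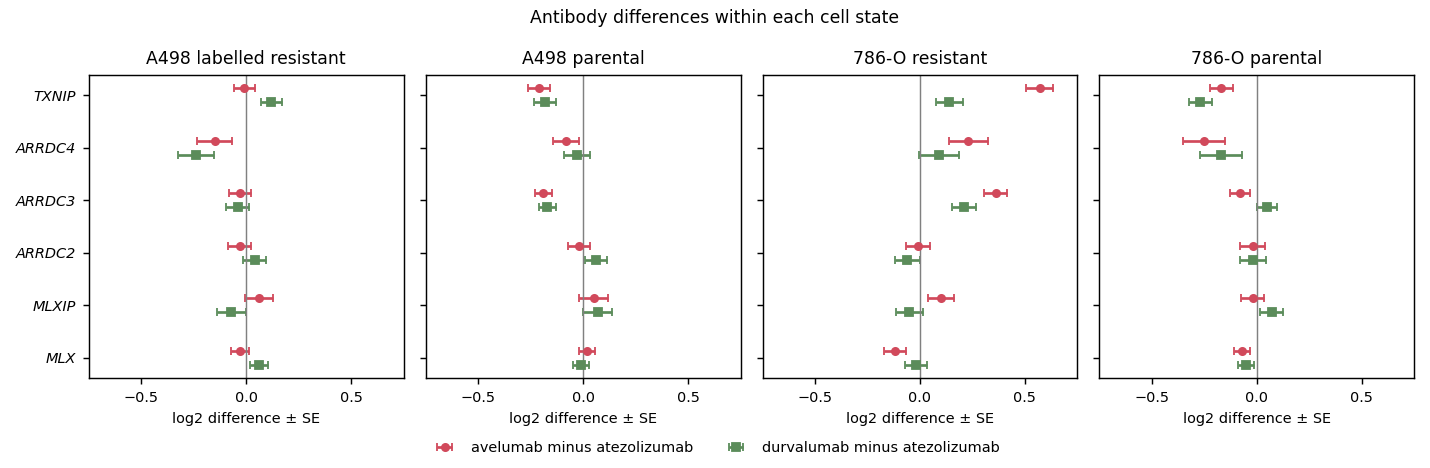
log2 difference from atezolizumab with its standard error for avelumab (circles) and durvalumab (squares) in each cell state, from edgeR. TXNIP and ARRDC3 sit to the right of 0 in 786-O resistant (0.57 and 0.36 with avelumab) and to the left in A498 parental (-0.21 and -0.19).

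The likeness of other genes to TXNIP was measured as Pearson's r of log2 TMM-scaled CPM over the 36 libraries after removing the mean of each state, among 10399 genes with at least 5 CPM in each state. These r values are descriptions, and all points share libraries, depth and scaling. ARRDC3 ranked 15th at r = 0.67 (Spearman 0.50) and ARRDC4 ranked 331 at 0.47. Pooled over states, MLXIP (-0.01), ARRDC2 (-0.04) and MLX (-0.12) were near 0, but MLXIP and MLX differed in sign by state. MLX was at 0.82 in 786-O parental, 0.64 in the libraries labelled A498 resistant, 0.09 in A498 parental and -0.64 in 786-O resistant. In the same order MLXIP was at -0.30, -0.68, -0.48 and 0.39. Within single states ARRDC3 followed TXNIP in A498 parental (r = 0.95, 9 libraries) and 786-O resistant (0.91), and not in 786-O parental (-0.20) or the libraries labelled A498 resistant (0.25). In the first 2 the atezolizumab libraries stand apart from the others for both genes, so r there holds the antibody differences as well as any relation among replicates, which were not separated.

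Among the genes most like TXNIP by this measure were CCDC28A (0.74), SERINC1 (0.73), STAG2 (a cohesin subunit, 0.71) and TFPI (tissue factor pathway inhibitor, 0.69). CCDC28A read 6.68 ± 0.189 CPM with atezolizumab, 8.72 ± 0.384 with avelumab and 7.89 ± 0.267 with durvalumab in 786-O resistant (n = 3 each), the same order as TXNIP. Without the 9 libraries of 786-O resistant the r of CCDC28A fell to 0.49 and 0 of the first 5 genes stayed among the first 5, and without the libraries labelled A498 resistant 2 of them did. Over the 12 group means, state differences included, the 4 genes most like TXNIP were ZNF436 (0.74), MYLK-AS1 (0.72), CUTALP (0.71) and OIP5-AS1 (0.69), and MYLK-AS1 overlaps MYLK on the other strand for 13.6% of its exonic bases. ARRDC3 and ARRDC4 were at -0.16 and -0.12 on that measure.

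**Figure D4:**
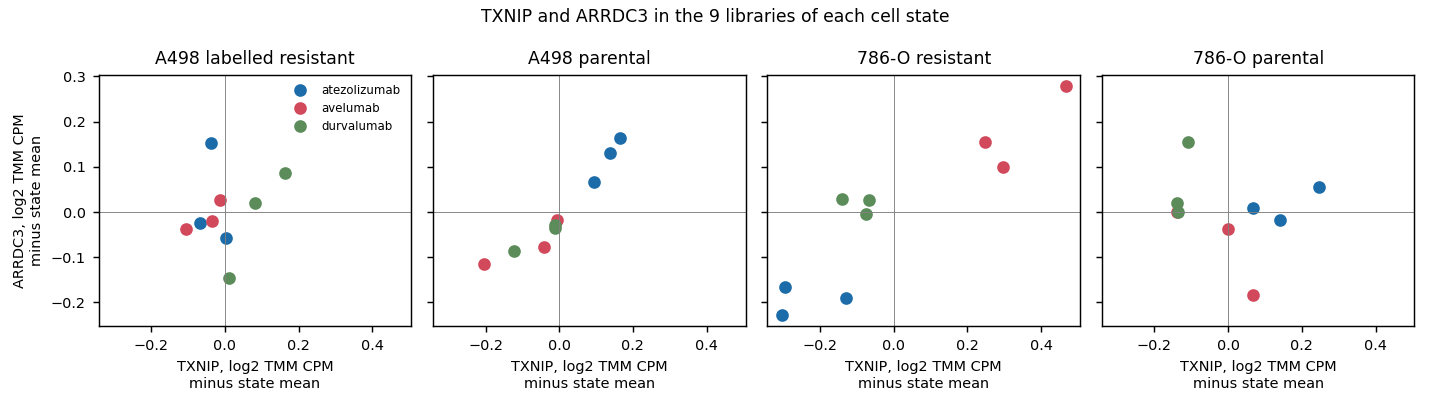
ARRDC3 against TXNIP in the 9 libraries of each cell state, both as log2 TMM-scaled CPM minus the mean of the state, coloured by antibody. The libraries line up in A498 parental (r = 0.95) and 786-O resistant (r = 0.91), with atezolizumab at opposite ends, and not in the other 2 states.

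Around the 7 genes, metabolic targets of MondoA and ChREBP were mostly higher in 786-O resistant than parental. Of 20 listed genes 15 were tested, 10 passed the threshold as higher and 2 as lower, with a median log2 difference of 0.41 against 0.03 over all genes, of which 43.6% were called higher and 40.2% lower, the share to set beside each list count in this comparison. PPP1R3B, which targets a phosphatase to glycogen, rose by 1.78 ± 0.035 on the log2 scale (edgeR adjusted p 2.34e-29, 10.5 to 39.0 CPM). SCD, the stearoyl-CoA desaturase, rose by 1.26 ± 0.028 (adjusted p 5.01e-28, 405 to 1036 CPM) and ACACB, acetyl-CoA carboxylase 2, by 0.86 ± 0.069 (adjusted p 3.55e-13). In the parental lines the list ran the other way, with 2 of 15 higher and 12 lower in 786-O and a median of -0.58 against -0.01 over all genes, of which 42.9% were called higher and 44.3% lower. ACACB differed there by -2.08 ± 0.052, SCD by -1.80 ± 0.055 and PPP1R3B by -1.21 ± 0.037. The 786-O parental libraries are in both of these comparisons, on opposite sides, so the medians of 0.41 and -0.58 are not independent. Against A498 parental the libraries labelled A498 resistant split on this list, 6 higher and 8 lower of 15, where 44.2% of all genes were called higher and 44.0% lower. Many of these lipid genes are also targets of SREBP factors.

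Of the glucose transporters and hexokinases 6 were higher and 6 lower of 14 tested in 786-O (median -0.02), near the shares of all genes (43.6% and 40.2%). SLC2A6, a lysosomal transporter, rose by 1.31 ± 0.034 (adjusted p 6.17e-22, 81.7 to 219 CPM) and SLC2A8 by 0.67 ± 0.030. HK2, an inducible member of the hexokinases, which make the sugar phosphate MondoA senses, fell by 0.67 on the log2 scale (SE 0.026, adjusted p 2.27e-21, 49.5 to 33.6 CPM). The more abundant HK1 and HKDC1 went in different directions. HK1 differed by -0.42 ± 0.022 (244 to 197 CPM) and HKDC1 by 0.30 ± 0.027 (145 to 193 CPM). SLC2A1, encoding GLUT1, a known client of TXNIP, was at 1071 and 997 CPM with a difference of -0.01 ± 0.022 that did not pass. In the libraries labelled A498 resistant against A498 parental 7 were higher and 6 lower of 15. Among those with at least 5 CPM in the higher state, SLC2A5, the fructose transporter (-2.33 ± 0.081), SLC2A12 (-1.76 ± 0.083) and SLC2A13 (1.08 ± 0.044) differed most. SLC2A12 shares 38.9% of its exonic bases with TBPL1 on the other strand, so its value is uncertain where the counting did not use strand.

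Of the thioredoxin system, to which the binding partner of TXNIP belongs, 16 of 16 genes passed the threshold in 786-O, where 83.8% of all genes did, 6 as higher and 10 as lower (median -0.19 against 0.03 over all genes). TXNRD3 rose by 1.12 ± 0.054, while GLRX, glutaredoxin, fell by 1.10 (SE 0.050) and PRDX1, a peroxiredoxin, by 0.70 (SE 0.028). TXN itself fell by 0.06 (SE 0.030, adjusted p 0.048), less than the 0.11 by which scaling moves this comparison. TXNRD1, a target of NRF2, stood at 1845 CPM in A498 parental against 608 in 786-O parental (-1.57 ± 0.020) and 638 in the libraries labelled A498 resistant. PRDX2 was 0.93 ± 0.021 and PRDX4 1.19 ± 0.023 higher in 786-O parental than in A498 parental.

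Of other arrestins and the NEDD4-family ligases that alpha-arrestins recruit, 6 were higher and 6 lower of 14 tested in 786-O (median -0.03), again near the 43.6% and 40.2% of all genes. HECW1 rose by 0.91 ± 0.050 and HECW2 by 0.90 ± 0.062, and SMURF2 fell by 0.75 (SE 0.033). NEDD4L stood at 25.9 CPM in A498 parental and 83.8 in 786-O parental (1.72 ± 0.024), and at 101 in the libraries labelled A498 resistant. In the MYC-MAX-MXD network, whose MAX dimers share E-boxes with MLX dimers, 4 were higher and 4 lower of 9 (median 0.07), also near those shares. MXD4, a repressor that can pair with MAX or MLX, rose by 0.75 ± 0.033, MGA rose by 0.64 ± 0.038 and MXI1 fell by 0.65 (SE 0.041). AMPK is the energy-sensing kinase that phosphorylates TXNIP. Of its subunits and upstream kinases, 2 of 8 genes were higher and 5 lower (median -0.15, against 0.03 over all genes). The subunit gene PRKAA2 rose by 0.94 ± 0.044. The subunit gene PRKAB1 and the upstream kinase CAMKK2 fell by 0.48 (SE 0.031) and 0.46 (SE 0.027).

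**Figure D5:**
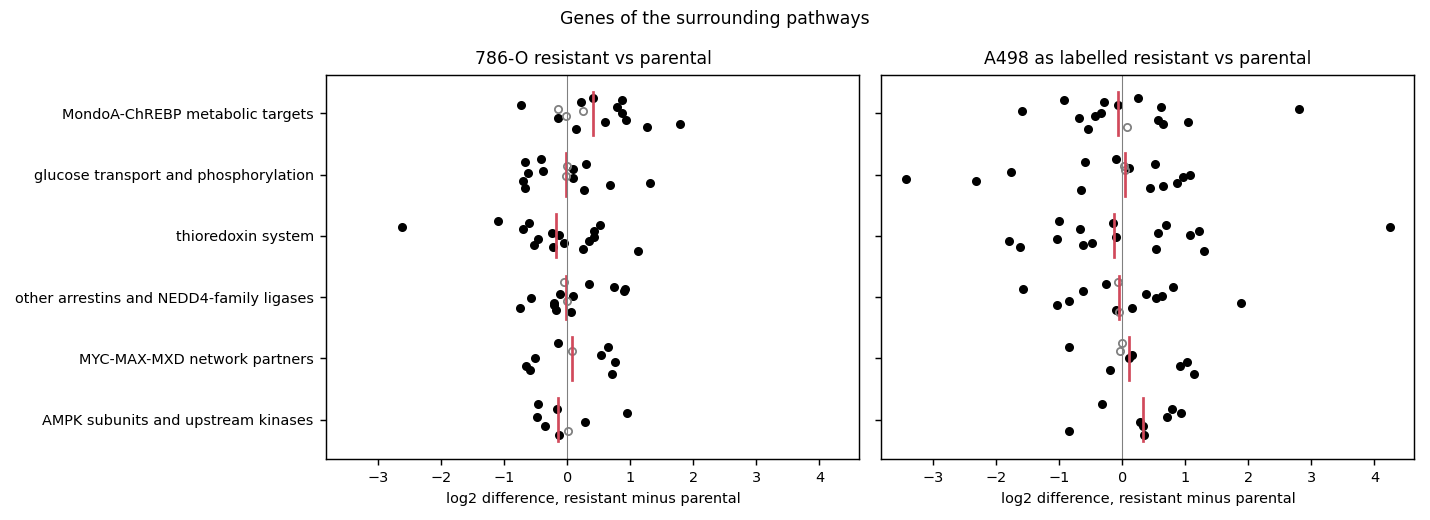
log2 difference of each gene in the 6 surrounding lists for 786-O resistant against parental (left) and the libraries labelled A498 resistant against A498 parental (right). Filled points passed an adjusted p of 0.05 in edgeR, open points did not, and red lines mark list medians, with the metabolic targets at 0.41 on the left and -0.07 on the right.

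The antibody test was also read for the surrounding genes. In 786-O resistant 2 of 76 listed genes passed edgeR's test, where 0.741% of all genes did, with SCD 0.33 ± 0.044 higher with avelumab than atezolizumab (adjusted p 3.86e-04) and HK2 0.23 ± 0.052 higher (adjusted p 0.0254). HK2 lost the call without atezolizumab replicate 1, 2 or 3, avelumab replicate 1, 2 or 3, or durvalumab replicate 3, with adjusted p up to 0.121. In 786-O parental 4 of 75 passed, where 3.52% of all genes did, and SCD was again higher with avelumab, by 0.47 ± 0.061 (adjusted p 0.00363), with FASN, fatty acid synthase, higher by 0.28 ± 0.038 (adjusted p 1.26e-04), in a state where TXNIP was not. FASN lost the call in a fit on all 36 libraries (adjusted p 0.186). MXD4, at 0.26 ± 0.052, lost it without avelumab replicate 2 (adjusted p 0.0545), and PRKAA2 differed by -0.32 ± 0.082 and lost it under 8 of 15 other settings, 6 of them without 1 library: atezolizumab replicate 1 or 3, avelumab replicate 1, 2 or 3, or durvalumab replicate 2.

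In A498 parental 3 of 76 passed, where 3.83% of all genes did: SRXN1 at -0.70 ± 0.14, whose exons largely overlap another gene and whose counts are therefore uncertain, GLRX at -0.18 ± 0.059 and TKFC at -0.15 ± 0.044 for avelumab minus atezolizumab. GLRX lost the call without atezolizumab replicate 1 or 3 or durvalumab replicate 1 (adjusted p up to 0.197), and TKFC under 10 of 15 settings, among them the omission of any atezolizumab library, avelumab replicate 2 or 3, or durvalumab replicate 1 or 3 (up to 0.222). In the libraries labelled A498 resistant edgeR called 0 of 75 and DESeq2 0, where edgeR called 0.0114% of all genes, with 5 at an unadjusted p under 0.05. All genes named for the antibodies outside the 7 were singled out after their values were seen.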

How the data were processed

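RNA from 36 libraries was sequenced after poly(A) selection with a stranded kit. The table holds raw counts per Ensembl gene as deposited by the authors. The submitters' processing notes name the genome build GRCh38, HISAT2 2.1.0, featureCounts 1.6.3, Trimmomatic 0.36.6 and bcl2fastq 2.19.0. The sources used here do not give the annotation release, the strand setting or the treatment of reads shared between genes. Beside MLX, SRXN1 and MYLK-AS1, named genes that share over 10% of their exonic bases with another gene are likewise uncertain. They are SLC2A12 (38.9%), CA9 (38.5%), PRDX1 (24.9%), TKFC (17.9%), PRDX2 (14.1%) and PRKAG1 (12.7%). Symbols were found for 45283 of 45478 genes. Positions and exonic lengths come from GENCODE 29 and promoter sequences from RefSeq, which held 7 of 7 members.

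CPM used the raw library total. edgeR 4.0.16 (R 4.3.3) fitted group means with TMM scaling after filterByExpr (minimum count 10, total 15), with robust quasi-likelihood tests and Benjamini-Hochberg adjustment over all genes tested, within 18 libraries for states and within 9 for antibodies (2 degrees of freedom). A gene was called at an adjusted p under 0.05. DESeq2 1.42.0 was an alternative. log2 CPM for likeness used a prior count of 2. Tested on simulated data for 786-O resistant against parental (19369 genes), the fit recovered 60% of genes changed 1.25-fold and 94% of those changed 2-fold. For the antibodies within 786-O resistant (18886 genes) these were 43% and 86%. In each simulation 100 genes were changed by each fold, and every other gene had the same mean in all groups. False calls numbered 12 and 11. Between the 786-O states 83.8% of genes were called in the data, far more than were changed, so the first 2 shares do not describe the real test.

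The members and lists were chosen with earlier results of these data known. Named genes are the members and, from each of 6 lists and in each state comparison, up to 3 called genes of largest change with at least 5 CPM in the higher state. The 5 most like TXNIP by each measure and HIF1A complete the rule. Some genes that the rule or the marker lists hold are not reported here. NEDD4L, TXN, SLC2A1, HK1, HKDC1, FASN and the genes called in the antibody tests are named beyond it where not already chosen by it. Replicate numbers did not pair the libraries, and no 2 libraries had identical counts.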

Additional observations from a re-analysis of the deposited data

Results flagged for a closer look

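Several genes differed in opposite directions in the 2 comparisons of a state labelled resistant with its labelled parental state. In both, every library of the state labelled resistant lay on 1 side of every parental library after TMM scaling. In plain CPM 53.3% of all genes tested did not overlap in 786-O and 66.6% in the libraries labelled A498. The share of genes doing so in opposite directions was not counted. Whether the 2 comparisons differ was not tested. The libraries labelled A498 resistant are of doubtful line, with HIF1A and mean profile near 786-O. Their differences from A498 parental are not read as a response of A498 to selection. In 786-O and then in the libraries labelled A498, the log2 differences were 0.89 and -1.02 for ARRDC4 and 0.62 and -0.33 for ARRDC2. Those of ACACB were 0.86 and -0.92, HECW1 0.91 and -1.57, HECW2 0.90 and -0.62, and MGA 0.64 and -0.84. The reverse order held for MXI1 (-0.65 and 0.91), NDFIP2 (-0.58 and 0.53), NEDD4L (-0.21 and 1.88), PRDX3 (-0.25 and 0.57), PRKAB1 (-0.48 and 0.71) and PRKAG1 (-0.35 and 0.33).

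Antibody differences also ran in opposite directions between states, with no overlap of libraries on either side and without a test of the difference. In plain CPM 11.3% to 23.4% of all genes tested had no overlap in the pairs of antibodies and states named here. For TXNIP in the libraries labelled A498 resistant, the nearest durvalumab and atezolizumab libraries both rounded to 37.7 CPM. For TXNIP, avelumab minus atezolizumab was 0.57 in 786-O resistant and -0.21 in A498 parental. Durvalumab minus atezolizumab was 0.12 in the libraries labelled A498 resistant, -0.18 in A498 parental and -0.27 in 786-O parental, and durvalumab minus avelumab was 0.14 in the former and -0.43 in 786-O resistant. For ARRDC3, avelumab minus atezolizumab was 0.36 in 786-O resistant and -0.19 in A498 parental, and durvalumab minus atezolizumab 0.21 and -0.17.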

How the results depend on the processing

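Counts of genes in the 4 state comparisons stayed within 1.5 times under each alternative run, and from 16187 to 16367, 17147 to 17455, 17279 to 17432 and 12901 to 13268 when 1 library was left out (786-O, A498 as labelled, parental lines, labelled resistant). Antibody counts moved more. Within the libraries labelled A498 resistant 2 genes were called, 50 without a filter, 0 in a fit on all 36 libraries and 0 to 89 without 1 library. A498 parental had 704, 1099 without a filter, 361 in the fit on all 36 and 233 to 892 without 1 library. 786-O resistant had 140, 692 without a filter, 307 with DESeq2, 626 in the fit on all 36 and 71 to 1160, the last without durvalumab replicate 1. 786-O parental had 618, 1400 without a filter and 299 to 1235, the last without durvalumab replicate 1. With a replicate block the counts were 300 in 786-O parental and 347 in 786-O resistant. Same-numbered libraries did not deviate together (r -0.08 to 0.09 over 36 pairs, 12 of which correlated best with their own number). The cause of these moves was not tested. No called result reversed. TXNIP between the parental lines, not called at 0.04, was -0.04 with a minimum of 1 CPM. Depth limits MLXIPL, which had 0 to 36 counts per library.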
